A study of Mus musculus with 12 samples.

Results

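Basement membranes are thin sheets of extracellular matrix under epithelia and around vessels, nerves and muscle. Their backbone is a network of type IV collagen and a network of laminin, which nidogens and the proteoglycan perlecan join to each other. The liver is unusual in this respect, since its sinusoids have no continuous basement membrane while its bile ducts and larger vessels have one, and a basement membrane along sinusoids is a known feature of fibrotic liver.

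The basement membrane genes described here were 10 genes fixed by name, of 52636 genes counted in the liver. They were the type IV collagen chains Col4a1, Col4a2, Col4a3, Col4a4 and Col4a5, the laminin chains Lamb1 and Lamc1, the nidogens Nid1 and Nid2, and Hspg2, which encodes perlecan. RNA was sequenced from 12 livers of male C57Bl/6J mice at 16 weeks of age, with 1 library per mouse. The 6 VDD-F1 mice were born to mothers on a vitamin D deficient diet and the 6 VDS-F1 mice to mothers on a vitamin D sufficient diet. Mothers received their diet from before mating until delivery, the deficient mothers also received calcium gluconate, and all offspring were kept on the sufficient diet after weaning. Thus no mouse was on a deficient diet at sampling. The labels do not give the litter of each mouse, so p-values measure the spread between these mice, some of which may be littermates. The question was whether the prenatal diet was followed by a difference in the adult liver.

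Each library held 14275793 to 20815066 counts on genes, and 16432 to 18901 genes were detected. A set of 10 hepatocyte markers, among them Alb, summed to 90055 to 120013 CPM (counts scaled to the library total) in every liver. Levels are given as CPM after scaling by the TMM method of edgeR, which corrects for library composition. Identical counts were found in 0 pairs of libraries. The diet contrast was tested with the quasi-likelihood method of edgeR for 12453 genes whose mean count reached 12. A differentially expressed gene (DEG) needed a Benjamini-Hochberg adjusted p-value under 0.05 together with a log2-fold change beyond 1 in either direction. A liver weight was recorded for 7 of the mice, namely VDD4, VDD5, VDD6, VDS3, VDS4, VDS5 and VDS6, and not for the other 5, and the contrast was also computed within each of these sets.

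Several of these genes lie head to head in the genome and start close to each other, and the stretches between their starts are shown for that reason. On GRCm38, Col4a1 lies on the minus strand of chromosome 8 (chr8:11198423-11312826) and Col4a2 on the plus strand (chr8:11312805-11449287), so that their annotated starts overlap by 22 bases. Col4a4 (chr1:82448423-82586849, minus strand) and Col4a3 (chr1:82586921-82722059, plus strand) are separated by 71 bases. The gap between Col4a6 and Col4a5 on chromosome X is 1308 bases. Nid1 and Hspg2 are shown with them because their contrasts were among the largest and the smallest of the 10 genes. The sequences are RefSeq's for GRCm38.p6, read on the plus strand, and capitals mark a GC box (GGGCGG, or CCGCCC on the other strand) or a CCAAT box (CCAAT, or ATTGG on the other strand).
Shared start of Col4a1 and Col4a2 (chr8:11312805-11312826): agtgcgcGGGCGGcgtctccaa
Gap between Col4a4 and Col4a3 (chr1:82586850-82586920): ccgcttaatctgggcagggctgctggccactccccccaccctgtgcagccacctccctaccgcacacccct
Upstream of Nid1 (chr13:13437352-13437550): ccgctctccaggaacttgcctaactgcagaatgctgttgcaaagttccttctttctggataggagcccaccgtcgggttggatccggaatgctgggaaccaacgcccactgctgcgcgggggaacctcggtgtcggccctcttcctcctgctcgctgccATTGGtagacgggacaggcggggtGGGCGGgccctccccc
Upstream of Hspg2 (chr4:137468553-137468768): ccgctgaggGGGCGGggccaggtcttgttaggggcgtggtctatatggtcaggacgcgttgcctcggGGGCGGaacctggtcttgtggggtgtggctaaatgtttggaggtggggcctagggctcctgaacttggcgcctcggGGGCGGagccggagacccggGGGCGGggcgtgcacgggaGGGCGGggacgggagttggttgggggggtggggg

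A promoter window of 300 bases was matched for 7 of the 10 genes, and Col4a3, Lamc1 and Nid2 were not matched. A GC box was present in the windows of 6 of the 7, against 35.7% of 32851 promoters, and was absent from that of Col4a4. The windows of Col4a1 and Col4a2 overlap and both hold the GC box of their shared start, so they are not independent. Hspg2 had 5 GC boxes, the highest number among the 7. A CCAAT box was present in 5 of the 7, all but Hspg2 and Col4a4, against 37.4% of promoters. A TATAAA motif was present in 0 of the 7, against 13.6% of promoters. The GC content was 74.0% for the window of Col4a1, 73.7% for Col4a2, 70.3% for Hspg2 and 52.7% for Col4a5, where the median promoter had 52.7%. A match to these letters describes the window and says nothing of a factor bound there.

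The 10 genes covered a wide range of levels. Per kilobase of exon, the mean level in VDS-F1 livers was 8.53 ± 1.55 CPM for Col4a1, 7.001 ± 0.329 CPM for Col4a2 and 6.17 ± 1.71 CPM for Hspg2 (SD, n = 6). These 3 genes were the most abundant per length, and neighbours among them differed by no more than the sum of their SDs. Lamc1 had 3.80 ± 0.40, Nid1 3.40 ± 0.31, Nid2 2.49 ± 0.56 and Lamb1 1.504 ± 0.120 CPM per kilobase. Of these, only Lamc1 and its neighbour Nid1 differed by no more than that sum. The remaining type IV collagen chains were far lower, with 0.355 ± 0.133 CPM per kilobase for Col4a5, 0.0457 ± 0.0275 for Col4a4 and 0.0343 ± 0.0332 for Col4a3, where Col4a4 and Col4a3 differed by no more than the sum of their SDs. In VDD-F1 livers the order was the same except that Nid1, with 6.92 ± 2.88 CPM per kilobase, stood above Lamc1, with 4.67 ± 0.95. There the neighbours that differed beyond the sum of their SDs were Lamb1 and Col4a5, and Col4a5 and Col4a4.

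**Figure D1:**
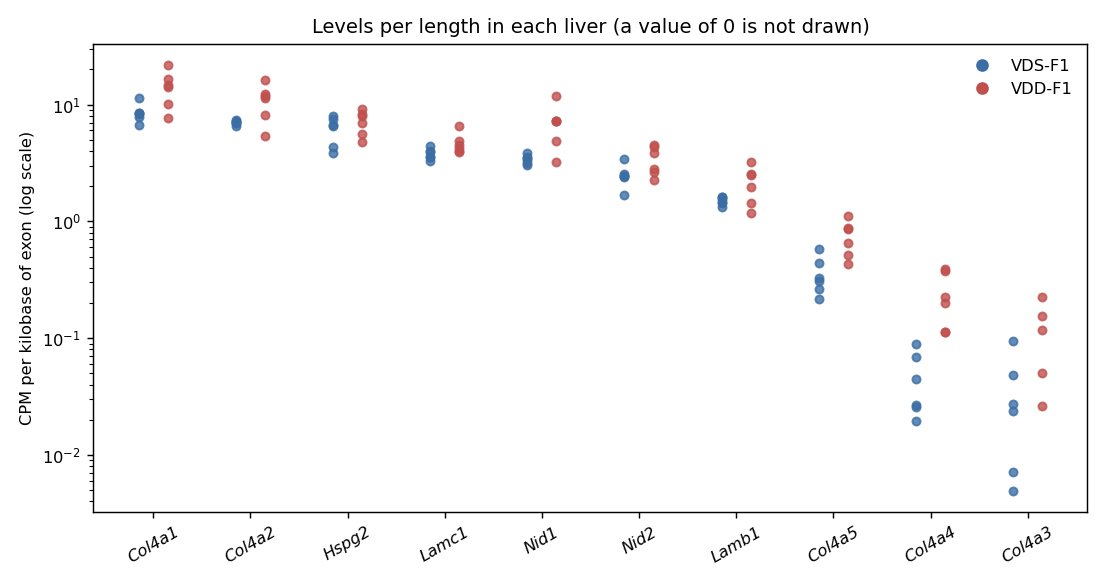
Levels of the 10 basement membrane genes per kilobase of exon on a log axis, with 1 point for each liver and the genes ordered by their VDS-F1 mean. Col4a1, Col4a2 and Hspg2 were the most abundant per length, and Col4a3 and Col4a4 the least, and the Col4a3 value of 0 in VDD3 is not drawn.

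All 9 basement membrane genes that could be tested had a higher mean in VDD-F1 livers. None of the 9 was a DEG, while 5 of the 12453 genes were (0.0402%). At an unadjusted p under 0.05, 8 of the 9 were higher in VDD-F1, against 9.55% of all genes, and 0 of the 9 were lower, against 6.29% of all genes. The median log2-fold change of the 9 was 0.64, where that of all genes was 0.0041, and 3 of them (Col4a4, Col4a5 and Nid1) were above 1. Col4a4 reached the minimum mean count only through the VDD-F1 livers, where it is high. Among the other 8 genes, 7 were higher at an unadjusted p under 0.05, and the median was 0.57. The 10 genes were chosen with earlier results of these data known, and the same livers were high for many of them. Their counts beside the share of all genes thus describe these genes and are no test of them. DESeq2, the tool named in the methods of the study, called those 3 genes, where it called 1.75% of all genes higher, and gave 5 of the 9 an adjusted p-value under 0.05, where 2.8% of all genes were higher at that adjusted p-value. Thus the direction did not depend on the tool, while the calls did. The genes that passed the filter on low counts are 9 of the 10, and Col4a3 is described by its counts. In RNA from whole liver, more cells of a type and more RNA per cell cannot be told apart.

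Col4a1 and Col4a2 encode the 2 chains of the type IV collagen found in nearly all basement membranes. Col4a1 ranged from 56.9 to 162 CPM in VDD-F1, with a median of 108, and from 50.1 to 85.1 CPM in VDS-F1, with a median of 62.7. VDD2, VDD4, VDD5 and VDD6 were above every VDS-F1 liver, and VDD1 and VDD3 lay within the VDS-F1 range. The log2-fold change of Col4a1 was 0.73 with a standard error of 0.21 (edgeR, unadjusted p = 0.00330, adjusted p = 0.118). Col4a2 ranged from 35.7 to 108 CPM in VDD-F1, with a median of 76.6, and from 42.9 to 49.0 CPM in VDS-F1, with a median of 46.1. The VDS-F1 livers were thus close together for Col4a2, and 5 VDD-F1 livers were above all of them, while VDD1 was the lowest of the 12. Its log2-fold change was 0.64 with a standard error of 0.19 (edgeR, unadjusted p = 0.00518, adjusted p = 0.134).

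Col4a3, Col4a4 and Col4a5 encode the chains of the type IV collagen known from the glomerular basement membrane of the kidney, and mutations in them cause Alport syndrome. Among the 12 livers, Col4a4 ranged from 1.20 to 4.12 CPM in VDD-F1, with a median of 2.24, and from 0.208 to 0.938 CPM in VDS-F1, with a median of 0.379. The groups of Col4a4 did not overlap, as for 0.61% of all genes, and it was the only one of the 10 genes with the lowest VDD-F1 liver above the highest VDS-F1 liver. Its log2-fold change was 2.31 with a standard error of 0.44 (edgeR, unadjusted p = 0.000111, adjusted p = 0.0627). The level rests on few reads, with a mean count of 43.7 across the VDD-F1 livers and 8.67 across the others, the latter under the minimum of 12.

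Col4a5 ranged from 2.90 to 7.41 CPM in VDD-F1, with a median of 5.11, and from 1.44 to 3.90 CPM in VDS-F1, with a median of 2.13. VDD2, VDD4, VDD5 and VDD6 were above every VDS-F1 liver, and the highest VDS-F1 liver, VDS1, was above VDD1 and VDD3. Its log2-fold change was 1.06 with a standard error of 0.28 (edgeR, unadjusted p = 0.00180, adjusted p = 0.0998).

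Col4a3 had a mean count of 11.8 and was not tested. The VDD-F1 livers, in the order of their numbers, held 8, 43, 0, 17, 5 and 33 counts of Col4a3, and the VDS-F1 livers held 1, 4, 4, 18, 7 and 1. The groups overlapped, with VDD3 at 0 and VDS4, at 0.936 CPM, above 3 of the VDD-F1 livers. The forward strand took 37.1% of the stranded counts at Col4a3, where C430014B12Rik overlaps it on the opposite strand, and 0.182% to 3.98% at the other 9 genes. With a filter of 12 counts in total, Col4a3 had a log2-fold change of 1.45 with a standard error of 0.77 (edgeR, unadjusted p = 0.0797, adjusted p = 0.413). Counted without regard to strand, its log2 fold change was 0.40 with a standard error of 0.60 (edgeR, unadjusted p = 0.515, adjusted p = 0.793).

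Lamb1 and Lamc1 encode the beta and gamma chains of the most widespread laminins. Lamb1 ranged from 11.7 to 32.2 CPM in VDD-F1, with a median of 22.1, and from 13.1 to 16.2 CPM in VDS-F1, with a median of 14.98. VDD2, VDD4, VDD5 and VDD6 were above every VDS-F1 liver, while VDD1 was below all of them. The log2-fold change of Lamb1 was 0.51 with a standard error of 0.20 (edgeR, unadjusted p = 0.0224, adjusted p = 0.236). Lamc1 ranged from 32.3 to 53.7 CPM in VDD-F1, with a median of 36.1, and from 27.3 to 36.5 CPM in VDS-F1, with a median of 31.0. Only VDD2, VDD4 and VDD5 were above every VDS-F1 liver for Lamc1. Its log2-fold change was 0.30 with a standard error of 0.12 (edgeR, unadjusted p = 0.0280, adjusted p = 0.257), and it was 0.18 without VDD2.

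Nid1 and Nid2 encode nidogens, which link laminin to type IV collagen. Nid1 ranged from 22.3 to 81.7 CPM in VDD-F1, with a median of 50.0, and from 20.9 to 26.9 CPM in VDS-F1, with a median of 23.6. All VDD-F1 livers but VDD1 were above every VDS-F1 liver, and VDD4, VDD5 and VDD6 had nearly equal levels. The log2-fold change of Nid1 was 1.03 with a standard error of 0.23 (edgeR, unadjusted p = 0.000428, adjusted p = 0.0855). Nid2 ranged from 11.6 to 23.3 CPM in VDD-F1, with a median of 17.1, and from 8.68 to 17.7 CPM in VDS-F1, with a median of 12.7. Here VDD4, VDD5 and VDD6 were above every VDS-F1 liver, while VDD2, the highest liver for Nid1, was not. Its log2-fold change was 0.45 with a standard error of 0.19 (edgeR, unadjusted p = 0.0341, adjusted p = 0.276). The last 437 bases of Nid2 overlap Rtraf, a gene on the opposite strand.

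Hspg2 encodes perlecan, a large heparan sulfate proteoglycan. It ranged from 68.1 to 132 CPM in VDD-F1, with a median of 107, and from 55.3 to 115 CPM in VDS-F1, with a median of 94.4. The groups overlapped widely, and only VDD2 and VDD4 were above every VDS-F1 liver. The log2-fold change of Hspg2 was 0.21 with a standard error of 0.20 (edgeR, unadjusted p = 0.303, adjusted p = 0.642), and it was the 1 tested gene of the 9 above an unadjusted p of 0.05. It was 0.11 without VDS1, 0.12 without VDD2 and 0.13 without VDS2, and 0.34 with the set of mice as a covariate.

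**Figure D2:**
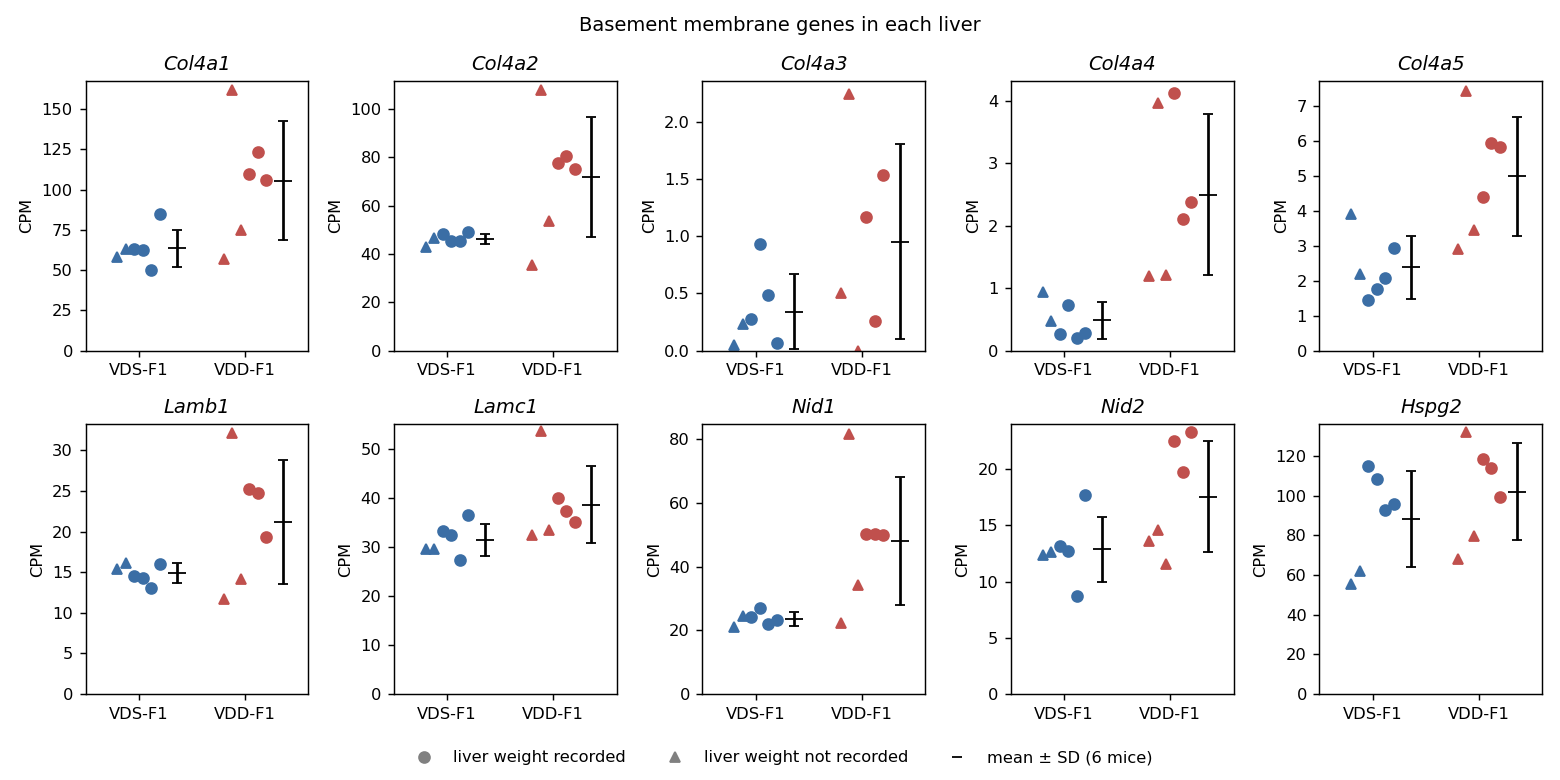
CPM of each basement membrane gene in the 6 VDS-F1 and 6 VDD-F1 livers, with 1 point per mouse in the order of the mouse numbers, circles for mice with and triangles for mice without a recorded liver weight, and the mean ± SD beside the points. The groups are apart for Col4a4 (VDD-F1 at 1.20 CPM or more, VDS-F1 at 0.938 CPM or less) and overlap for the other genes.

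The SD among the VDD-F1 livers was larger than that among the VDS-F1 livers for these genes, nearly equal for Hspg2, and the same mice were high for many of them. The number of basement membrane genes above every VDS-F1 liver was 1 in VDD1, 9 in VDD2, 3 in VDD3, 10 in VDD4, 8 in VDD5 and 8 in VDD6. Of all genes tested, 14.9% were above every VDS-F1 liver in VDD1, 25.2% in VDD2, 18.4% in VDD3, 18.7% in VDD4, 19.6% in VDD5 and 20.6% in VDD6. VDD2 was the highest of all 12 livers for 8 of the 10 genes. Summed over the 10 genes, the level was 598 CPM in VDD2, 454 in VDD4, 458 in VDD5 and 418 in VDD6, against 245 in VDD1 and 306 in VDD3. The VDS-F1 livers summed to 240 to 326 CPM, a range that held VDD1 and VDD3. Without VDD2 the median log2-fold change of the genes was 0.50, and 6 were higher at an unadjusted p under 0.05, against 7.24% of all genes. Without VDD1 the edgeR test called Col4a4, Col4a5 and Nid1, where it called 1.7% of all genes higher. Without VDD3 it called Col4a4 and Nid1, where it called 0.584% of all genes higher. With any other single mouse left out, it called 0 of the basement membrane genes and 0 to 12 of all genes. Col4a4 reached the minimum mean count only through VDD-F1.

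**Figure D3:**
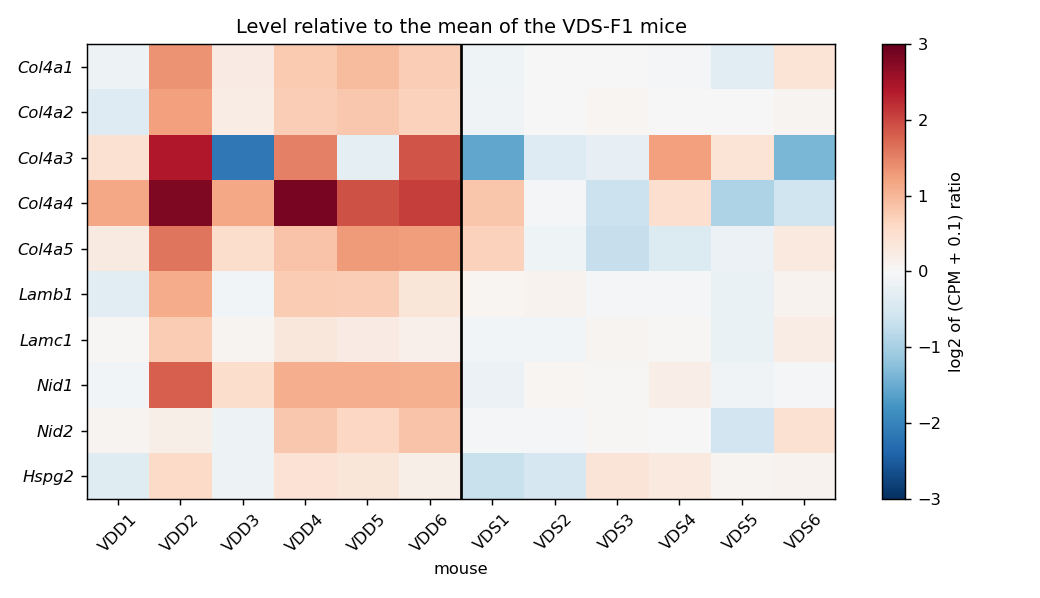
Level of each basement membrane gene in each liver as the log2 ratio of its CPM to the VDS-F1 mean, with 0.1 CPM added to both, where red is above and blue below that mean. VDD2, VDD4, VDD5 and VDD6 were above it for most genes, with the summed level at 598, 454, 458 and 418 CPM, while VDD1 and VDD3 were at 245 and 306 CPM.

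Within the 7 mice with a recorded liver weight, all 10 genes passed the filter and 3 of them (Col4a4, Col4a5 and Nid1) were DEGs, where 3.07% of 12369 genes were called higher. Their log2-fold changes there were 2.84 for Col4a4, 1.40 for Col4a5 and 1.06 for Nid1 (edgeR, adjusted p = 0.00228, 0.00539 and 5.93e-05). Col4a3 and Col4a4 reached the minimum there only through VDD-F1, and 2 of the other 8 genes were called. Col4a3 had a log2-fold change of 1.08 there with a standard error of 0.68 (unadjusted p = 0.139, adjusted p = 0.356). Within the 5 mice without a recorded weight, 0 of the genes were called, as were 0 of all 12541 genes (0%), and 0 had an unadjusted p under 0.05 by edgeR, against 3.77% of all genes. This smaller set holds VDD1, VDD2 and VDD3, which differed widely, and the log2-fold changes there were 1.59 ± 0.77 for Col4a4, 0.60 ± 0.52 for Col4a5 and 1.03 ± 0.52 for Nid1 (standard error). The direction was the same in both sets for the 9 genes.

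Whether the contrast itself differed between the sets was tested as an interaction. Nid2 had the smallest p-value of the 9, with a log2-fold change of 0.74 in mice with and 0.09 in mice without a recorded weight (edgeR, unadjusted p = 0.0448, adjusted p = 0.546), and it was the 1 gene of the 9 under 0.05, against 9.01% of all genes. Hspg2 went the other way, with 0.11 in mice with and 0.67 in mice without a recorded weight (unadjusted p = 0.0725, adjusted p = 0.599). The contrasts of the 9 genes were thus not shown to differ between the sets. With the diet adjusted for, Hspg2 was higher in mice with a recorded weight by 0.51 on the log2 scale and Nid2 by 0.41 (edgeR, unadjusted p = 0.00811 and 0.0289, adjusted p = 0.149 and 0.279). These were the 2 genes of the 9 under 0.05 for the set of mice, against 13.9% of all genes. The VDS1 and VDS2 livers, with 55.3 and 62.1 CPM of Hspg2, were the lowest of the 12.

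**Figure D4:**
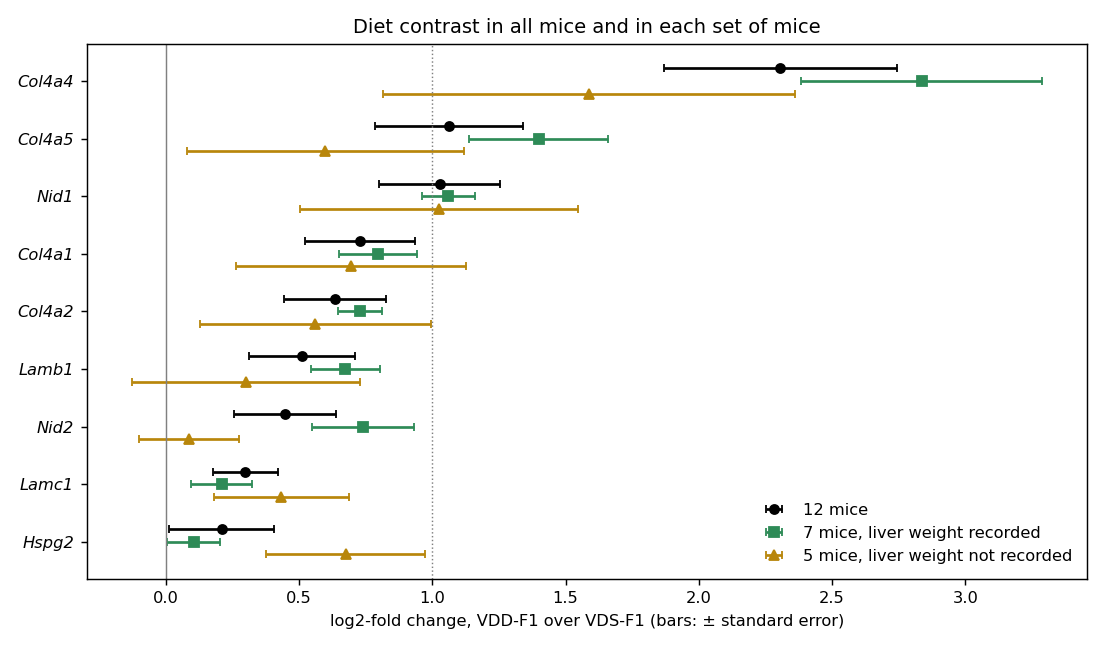
Log2-fold change between VDD-F1 and VDS-F1 for the 9 tested basement membrane genes in all 12 mice (circles), in the 7 mice with (squares) and the 5 without (triangles) a recorded liver weight, with bars of ± 1 standard error and a dotted line at 1. All points lie above 0, from 0.09 for Nid2 to 2.84 for Col4a4, and the bars are wider in the 5 mice than in the 7 for 8 of the 9 genes, with near equal bars for Nid2.

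The balance between partner genes was compared as the log2 ratio of their CPM within each liver. For 7 ratios, exact two-sided permutation tests over the mice gave adjusted p-values of 0.227 to 0.710, and no p-value below 0.00216 is possible with 6 mice in each group. The largest differences among ratios of well counted genes were for the ratio of Nid2 to Nid1, lower in VDD-F1 by 0.50 on the log2 scale (exact p = 0.0887), and for that of Hspg2 to Col4a1, lower by 0.44 (exact p = 0.0779). Without VDD2 these differences were -0.28 and -0.38. The latter was -0.71 in the mice with a recorded weight and turned to 0.07 in those without one. The ratio of Col4a2 to Col4a1 averaged -0.55 ± 0.08 among the VDD-F1 livers against -0.44 ± 0.21 among the others (SD, n = 6, exact p = 0.258). This difference did not pass the test, and it was -0.05 without VDS5 and -0.18 without VDS6 (exact permutation test, adjusted p = 0.545 and 0.0303). The ratios of the 6 VDD-F1 livers, VDD2 included, ranged from -0.67 to -0.48.

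The genes whose level followed Col4a1 and Col4a2 most closely over the 12 livers were ranked by Pearson's r with the mean log2 CPM of this pair. The 5 highest outside the 10 basement membrane genes were Sparc (r = 0.976), a collagen-binding matricellular protein, App (r = 0.971), the amyloid precursor protein, Igfbp7 (r = 0.968), a secreted growth factor binding protein, Fbn1 (r = 0.967), the main protein of microfibrils, and Ace (r = 0.965), the angiotensin converting enzyme. Nid1 ranked 7th (r = 0.966) and Lamb1 16th (r = 0.955) of all genes, the collagen pair included. Lamc1 ranked 150th, Col4a5 389th, Col4a4 580th, Hspg2 1047th and Nid2 1123rd. The 12 livers include both diets, so this likeness holds the difference between the groups as well. For the 5 genes, r was 0.965 to 0.982 among the VDD-F1 livers and 0.377 to 0.788 among the VDS-F1 livers, with 6 livers in each.

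Other genes of the pathway were grouped by role, with 58 genes tested in 4 groups, of which 0 were DEGs by edgeR. Their counts at an unadjusted p under 0.05 stand beside 9.55% of all genes higher and 6.29% lower, as do those of the cell type markers. Among other basement membrane components, 24 of 26 genes were tested, and at an unadjusted p under 0.05, 7 were higher and 1 was lower in VDD-F1, with a median log2-fold change of 0.20. Those with the smallest p-values were Tinag, a protein known from tubular basement membranes of the kidney, and the fibulins Fbln1 and Fbln2. For Tinag the 6 VDD-F1 livers, in the order of their numbers, held 0, 41, 1, 32, 53 and 43 counts, while VDS5 held 3 and the other VDS-F1 livers 0. It was thus seen mainly in VDD2, VDD4, VDD5 and VDD6, the livers that were also high for the collagen pair. Tinag reached the minimum mean count only through these VDD-F1 livers, and without it 6 of 23 genes were higher. Fbln1 averaged 3.95 ± 2.19 CPM in the VDD-F1 livers against 1.26 ± 0.39 in the others (SD, n = 6), a log2-fold change of 1.65 (edgeR, adjusted p = 0.0855), and Fbln2 a log2-fold change of 1.29 (adjusted p = 0.109). The 1 lower gene, named after its value was seen, was the laminin alpha chain gene Lama1, at 5.80 ± 2.64 and 10.4 ± 3.58 CPM (log2-fold change -0.85, adjusted p = 0.190).

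Cell receptors of the basement membrane had 10 of 11 genes tested, with 4 higher and 1 lower and a median of 0.33. Itga7, a laminin-binding integrin chain, was the lower one, at 4.67 ± 1.12 CPM in the VDD-F1 livers against 7.50 ± 1.41 in the others (SD, n = 6; edgeR log2-fold change -0.69, adjusted p = 0.1004). Itga6, also a laminin-binding integrin chain, had a log2-fold change of 1.02 (adjusted p = 0.138), and Ddr2, a collagen receptor kinase, one of 0.64 (adjusted p = 0.159).

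Collagen processing genes had 19 of 20 tested, with 6 higher and 1 lower and a median of 0.06. Without Lox, a lysyl oxidase that reached the minimum mean count only through VDD-F1, 5 of 18 were higher. The smallest p-values were those of Serpinh1, the collagen chaperone, at 27.9 ± 9.86 CPM in the VDD-F1 livers against 15.7 ± 1.43 in the others (SD, n = 6; edgeR log2-fold change 0.83, adjusted p = 0.0947), Loxl1, a lysyl oxidase, with a log2-fold change of 1.77 (adjusted p = 0.118), and Crtap, a subunit of a prolyl hydroxylase complex, with one of 0.71 (adjusted p = 0.134). Proteases and their inhibitors had 5 of 6 tested, with 3 higher and 0 lower and a median of 0.76. These were Mmp2, a gelatinase that cleaves type IV collagen, with a log2-fold change of 1.69 (edgeR, adjusted p = 0.133), and the inhibitors Timp3 and Timp2, with 0.89 and 0.76 (adjusted p = 0.172 and 0.223). DESeq2 called 5 of these 58 genes higher (Fbln1, Fbln2, Tinag, Itga6 and Loxl1), against 1.75% of all genes, and 0 lower. Of these 5, Tinag reached the minimum mean count only through VDD-F1.

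**Figure D5:**
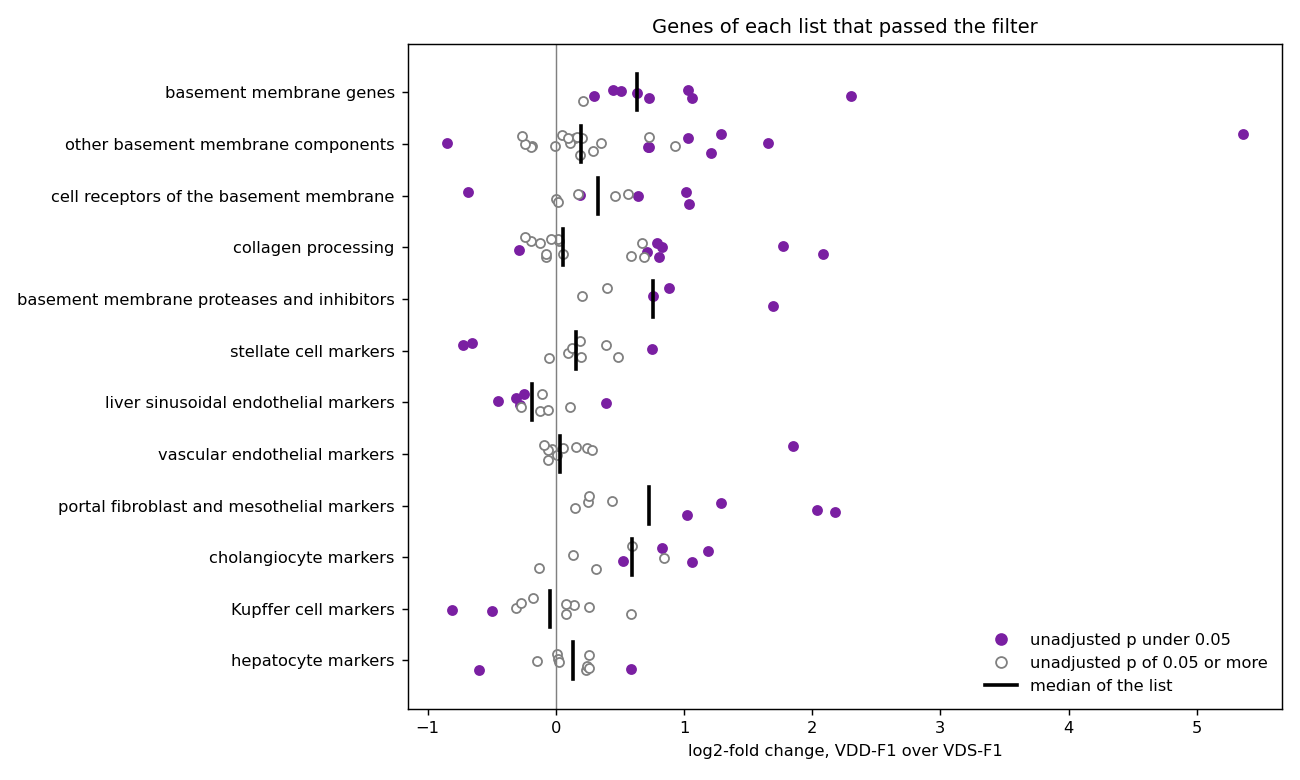
Log2-fold change between VDD-F1 and VDS-F1 of every tested gene of each list, 1 point per gene, filled where the unadjusted p of edgeR is under 0.05, with the median of the list as a bar. The median was 0.64 for the basement membrane genes and 0.76 for the proteases and inhibitors. The point farthest right is Tinag, whose fitted value is imprecise because 5 VDS-F1 livers had 0 counts.

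Basement membrane genes are made by several liver cell types, and markers of these were summed in the same livers. Of 10 stellate cell markers, 1 was higher and 2 were lower at an unadjusted p under 0.05, with sums of 284 to 455 CPM across the VDD-F1 livers and of 376 to 447 CPM across the VDS-F1 livers. Of 10 sinusoidal endothelial markers, 1 was higher and 4 were lower, with sums of 393 to 456 and 359 to 569 CPM. Of 10 vascular endothelial markers, 1 was higher (Cd34, log2-fold change 1.85, edgeR adjusted p = 0.136) and 0 were lower, with sums of 102 to 159 and 108 to 145 CPM. The sums of these 3 types overlapped between the groups, as did those of the types described next. Reln and Ecm1 had the highest levels of the stellate cell markers. Reln averaged 150 CPM in VDD-F1 and 141 CPM in VDS-F1, and Ecm1 90.9 and 150 CPM.

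Of 8 portal fibroblast and mesothelial markers tested, 4 were higher (Eln, Dpt, Fbln2 and Gpm6a, the last 3 named after their values were seen) and 0 lower, with a median log2-fold change of 0.73 and sums of 12.7 to 79.1 CPM across the VDD-F1 livers and of 9.004 to 22.7 CPM across the VDS-F1 livers. Fbln2 was also counted among the other basement membrane components. Eln, which encodes elastin, had the smallest p-value (log2-fold change 2.18, edgeR adjusted p = 0.0917). The sum was 79.1 CPM in VDD2 and 37.0 to 43.4 CPM in VDD4, VDD5 and VDD6, against 12.7 in VDD1 and 21.01 in VDD3. Eln and Dpt made up 61.8% to 71.9% of the sum in VDD2, VDD4, VDD5 and VDD6. Of the 8 markers tested, 3 (Dpt, Eln and Fbln2) were higher in each of these 4 livers than in the other 8. These 4 livers are those already seen to be high for the basement membrane genes. The share of all genes with this order was not computed, so the count of 3 has no background beside it. The other 5 (Entpd2, Gpm6a, Msln, Thy1 and Upk3b, named after their values were seen) did not share this order, and Upk3b, for example, was at 0.42 CPM in VDD5 against 5.58 CPM in VDS6. Cholangiocyte markers, with 4 of 9 tested higher and 0 lower, had a median of 0.60 and sums of 54.7 to 158 and 61.9 to 91.7 CPM. Without Tspan8 and Cldn7, which reached the minimum mean count only through VDD-F1, 3 of 7 were higher. Their smallest p-value was that of Spp1, osteopontin (log2-fold change 0.83, edgeR adjusted p = 0.275). Of 10 Kupffer cell markers, 0 were higher and 2 lower, with sums of 228 to 559 and 273 to 487 CPM, and of 10 hepatocyte markers 1 was higher and 1 lower. The hepatocyte sums were 101327 to 120013 CPM across the VDD-F1 livers, with VDD2 the lowest of these, and 90055 to 108763 CPM across the VDS-F1 livers. The smallest p-values of the other lists were those of Ecm1, Clec4g, Timd4 and Serpina1c, all lower in VDD-F1 (log2-fold change -0.72, -0.28, -0.81 and -0.60, edgeR adjusted p = 0.1004, 0.171, 0.235 and 0.0855). These genes do not stand for their whole lists. The log2-fold change was positive for 7 of 10 stellate cell markers (median 0.16) and 8 of 10 hepatocyte markers (median 0.13). It was positive for 2 of 10 sinusoidal endothelial markers (median -0.19) and 5 of 10 Kupffer cell markers (median -0.05). VDD2 had the highest sum of the 12 livers for portal fibroblast and mesothelial (79.1 CPM), cholangiocyte (158) and Kupffer cell (559) markers. It was also the highest, but close to the next liver, for stellate cell (455 against 447 in VDS6) and vascular endothelial markers (159 against 156 in VDD5), and it was not the highest for sinusoidal endothelial markers. No listed marker was at 0 in every library. The part of these cell types in the higher levels of the basement membrane genes was not tested.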

How the data were processed

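Liver RNA libraries of 6 VDD-F1 and 6 VDS-F1 mice were made with a kit that removes ribosomal RNA. Per the study's methods, adapters were trimmed and STAR aligned the reads to mm10 (GRCm38). The authors deposited raw counts per gene (GENCODE M15) that are not normalized, with 1 unstranded column and 1 column per strand. The column used by the authors is not given in the sources used here, and reverse-strand counts were taken because the kit keeps the strand. STAR counts only reads that map to 1 place. Symbols and positions came from GENCODE M21, and 52403 of 52636 identifiers matched a symbol. The rows for unmapped, multimapped, ambiguous and unassigned reads were left out.

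Differential expression used edgeR 4.0.16 in R 4.3.3 (TMM, quasi-likelihood test in the legacy form) on the 12453 genes whose mean count reached 12, with Benjamini-Hochberg adjustment over all of them. Standard errors are the absolute log2-fold change divided by the square root of F. Ratios and likeness used log2 CPM with a prior count of 2. Alternatives were DESeq2 1.42.0, voom with quality weights (limma 3.58.1), other filters, scalings and strands, the set of mice, a replicate block and each mouse left out. Calls were tested on simulated data. Python 3.11.15, pandas 2.3.3, SciPy 1.17.1, NumPy 2.4.6 and matplotlib 3.10.9 were used. The recorded liver weights that define the sets of mice were read from the study's supplement, on the assumption that its mouse names are those of the sample titles.

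The 10 genes and the other lists were chosen with earlier results of these data known. Genes named from the other basement membrane lists are those past the threshold or, where none is, the 3 with the smallest p-value, from each marker list the gene with the smallest p-value, and for likeness the 5 genes with the highest r. Histology, proportions of cell types and protein were not analysed here. With 14275793 to 20815066 counts per library, a gene near the minimum count has few reads per liver, so its fold change is imprecise.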

Additional observations from a re-analysis of the deposited data

Results flagged for a closer look

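Among 20 groups of 6 livers, 1 held a mouse far from the others, where chance gives about 1 in 20. It was Lamc1 in VDD-F1, with VDD2 at 53.7 CPM, above the next liver by more than the distance allowed for 6 values. Col4a1 in VDS-F1, with VDS6 at 85.1 CPM, was just short of that distance. Without VDD2 the log2-fold change of Lamc1 was 0.18, against 0.30 with it.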

How the results depend on the processing

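The number of basement membrane genes called was 0 of 9 in the edgeR test. It was 3 with DESeq2, 2 with voom, 2 without a filter beyond 1 count, 3 in the mice with a recorded liver weight, and 0 to 3 when each mouse was left out (3 without VDD1 and 2 without VDD3). The number with an unadjusted p under 0.05 was 8, and it was 0 in the mice without a recorded weight and 6 to 9 with each mouse left out, where 12.4% to 18.9% of all genes were under it. The median log2-fold change was 0.50 to 0.77 with each mouse left out. DEGs among all genes numbered 5, and 253 with DESeq2, 252 with voom, 17 in the newer edgeR form, 70 without a filter, 21 with the set of mice as a covariate, 536 in the mice with and 0 in the mice without a recorded weight (where 473 had an unadjusted p under 0.05), and 0 to 260 with each mouse left out (260 without VDD1, 94 without VDD3, 12 without VDS2, 1 without VDS6 and 0 without VDD4, VDD5, VDD6, VDS3, VDS4 or VDS5). In the 4 other groups of basement membrane genes the count was 0, and 5 with DESeq2, 8 with voom, 1 in the newer edgeR form, 1 without a filter, 15 in the mice with a recorded weight and 0 to 9 with each mouse left out (9 without VDD1 and 2 without VDD3).

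Of the 7 ratios, 0 passed the threshold, and 0 to 1 did with each mouse left out: Col4a2 to Col4a1 without VDS6, at -0.18 (exact permutation test, adjusted p = 0.0303). The difference in the ratio of Col4a3 to Col4a1, 0.27, turned to -0.61 with the count that ignores the strand and to -0.0096 without VDS6, within a range of -0.0096 to 0.71 when each mouse was left out. In the mice without a recorded weight, that of Col4a5 to Col4a1 turned from 0.36 to -0.0313, Lamc1 to Lamb1 from -0.15 to 0.24, and Hspg2 to Col4a1 from -0.44 to 0.0690. The causes were not tested.

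The replicate numbers mark different mice, and the correlation of same-numbered livers ran from -0.08 to 0.10, so the numbers do not pair them. With a replicate block, 0 basement membrane genes, 17 of all genes and 1 gene of the other groups were called. Col4a3 and Col4a4, at mean counts of 11.8 and 26.2, are limited by depth.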
